A study of Mus musculus with 12 samples.

Results

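Simple epithelial keratins are the keratins of single-layered epithelia, and 4 of them are described here: Krt7, Krt8, Krt18 and Krt19. The members were chosen by symbol and were present in all 12 expression tables, which made 4 genes of the 52 keratin symbols and of the 23183 symbols listed in all. Keratins are the intermediate filaments of epithelial cells, and a filament forms only from pairs of an acidic type I chain and a basic type II chain. Krt7 and Krt8 are type II chains and Krt18 and Krt19 are type I chains. In the healthy kidney Krt8 and Krt18 are known from the distal tubule and the collecting duct, Krt7 and Krt19 are also known from the collecting duct and the urothelium, and proximal tubule cells hold little of these filaments until they are injured.

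The libraries came from kidney cortex of male C57BL/6N mice that were 6 to 7 weeks old at surgery. Kidneys were taken on day 7 after unilateral ureteral obstruction (UUO), in which the ureter of 1 kidney is closed. The obstructed kidney is called UUO and the opposite, contralateral kidney CL, and both kinds were taken from Acot12+/+ and from Acot12-/- mice, in 4 groups of 3 libraries. The Acot12-/- allele is a mutation made in the germ line with an RNA-guided endonuclease, so every cell of these mice carries it, and no sham-operated or unoperated group was analysed: the CL kidneys come from operated animals. ACOT12 cleaves acyl-CoA to free fatty acid and CoA, and the comparisons ask what obstruction does in each genotype and whether the genotype changes it.

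The values are FPKM, the number of sequenced fragments divided by transcript length and sequencing depth, so that levels of genes can be compared with each other. Acot12 itself measured 73.8, 52.7 and 78.1 FPKM in Acot12+/+ CL and 9.15, 9.01 and 6.80 FPKM in Acot12-/- CL kidneys. It measured 9.98, 16.7 and 21.2 FPKM in Acot12+/+ UUO and 3.28, 1.80 and 3.86 FPKM in Acot12-/- UUO kidneys, so the Acot12-/- libraries were below the Acot12+/+ libraries in both kinds of kidney. The depth estimated from the smallest steps in the values was 11200000 to 14700000 fragments in CL and 16500000 to 20400000 in UUO libraries. At that depth Krt19, the lowest of the 4 keratins, rested on about 23 to 265 fragments in CL and 1219 to 3632 fragments in UUO libraries. Acot12-/- CL replicate 2 stood apart from the other CL libraries of its group on the second principal component of all genes tested (52.3 against -22.2 and -33.0), and Acot12+/+ CL replicate 2 stood apart in urothelial genes, as given with the results they touch.

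The 4 genes sit at 2 keratin clusters of the mouse genome (build GRCm38, gene models of GENCODE vM21). The type II genes Krt7 (chr15:101411043-101430313, plus strand) and Krt8 (chr15:101996698-102004482, minus strand) share chromosome 15 with Krt18 (chr15:102028180-102032027, plus strand). Krt18 is the 1 type I gene of the 4 that lies at the type II cluster. Krt8 and Krt18 run away from each other, with starts 23.7 kb apart, and Krt7 lies 566.4 kb from Krt8. Krt19 lies on chromosome 11 (chr11:100140810-100148665, minus strand). The longest annotated transcripts have 9 exons for Krt7, 9 for Krt8, 7 for Krt18 and 6 for Krt19. An antisense gene, Gm671, overlaps Krt7 and a long noncoding gene, Gm36026, overlaps Krt8; the library kit keeps the strand, but whether the counting used it is not given in the sources used here.

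The sequences before the starts of the 3 neighbours on chromosome 15 are shown because these genes share a chromosome, with Krt8 and Krt18 next to each other in this set. They are the RefSeq promoter windows (GRCm38.p6) of 250 bases before each start, without the bases that GENCODE places in an exon of a protein-coding transcript, printed 5′ to 3′ on the strand of the gene. The RefSeq start is not the GENCODE start: for Krt7 it lies inside the GENCODE gene, next to the start of the protein-coding transcript with the widest span, and for Krt8 and Krt18 within the first GENCODE exon. Krt19 had no entry among the sequences used. Capitals mark matches, on either strand, to TATAAA, the letters of the common core promoter box, to GGGCGG, known as the GC box of SP1 and KLF factors, to TGANTCA of AP-1, to GCCNNNGGC of AP-2 or to CCGGAAGT of ETS factors.
Krt7, chr15:101412153-101412401, plus strand: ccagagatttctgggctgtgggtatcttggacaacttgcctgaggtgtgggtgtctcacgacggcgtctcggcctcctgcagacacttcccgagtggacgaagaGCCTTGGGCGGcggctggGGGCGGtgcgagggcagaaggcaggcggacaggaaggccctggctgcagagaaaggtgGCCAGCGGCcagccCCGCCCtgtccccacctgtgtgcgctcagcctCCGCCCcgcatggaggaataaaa
Krt8, chr15:102004483-102004592, minus strand: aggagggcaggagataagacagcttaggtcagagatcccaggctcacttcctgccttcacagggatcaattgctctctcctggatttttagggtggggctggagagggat
Krt18, chr15:102027966-102028179, plus strand: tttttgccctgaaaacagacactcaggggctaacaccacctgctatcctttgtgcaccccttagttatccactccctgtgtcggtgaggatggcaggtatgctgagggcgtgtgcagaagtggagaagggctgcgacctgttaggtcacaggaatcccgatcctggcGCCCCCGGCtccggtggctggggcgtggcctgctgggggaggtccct

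In the full windows of 250 bases, Krt7 held 4 matches to the GC box and 2 to the AP-2 letters, 1 of each overlapping, and Krt18 held 1 match to the AP-2 letters. Krt8 held none of the 5. Of 32851 promoter windows of the same length, 32.7% held the GC box, 13.7% the AP-2 letters, 12.4% the core promoter box, 6.7% the AP-1 letters and 2.9% the ETS letters. The windows were 66.0% G and C in Krt7, 58.0% in Krt8 and 60.4% in Krt18, where the median window had 52.4%. A match describes the letters and says nothing about binding.

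After obstruction the 4 keratins stood higher in both genotypes, and the difference was larger the lower the mean CL level of the gene. The type I genes Krt18 and Krt19 had the lowest CL levels and the largest rises of the 4. Every UUO library was above every CL library of the same genotype for all 4 genes, where 35.5% of the 13243 genes tested showed this in Acot12+/+ and 27.8% in Acot12-/- mice. The test was limma on log2(FPKM + 1) with p adjusted by Benjamini and Hochberg over all genes tested, and a gene was called at an adjusted p under 0.05. By this test 3 of the 4 rose in Acot12+/+ mice, where 23.6% of all genes tested were called higher, and 4 of 4 in Acot12-/- mice, where 26.6% were. The median difference of the 4 was 2.21 and 2.29 on the log2 scale, against medians over all genes tested of 0.01 and -0.01. In bulk tissue, more cells of a type and more RNA per cell cannot be told apart.

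**Figure D1:**
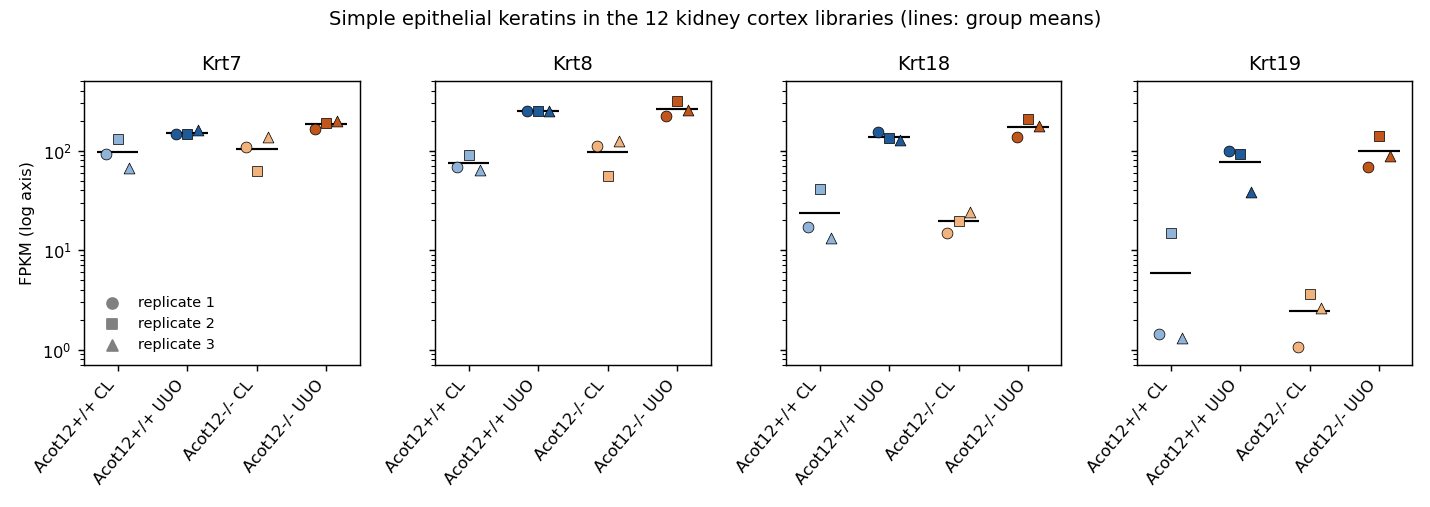
FPKM of Krt7, Krt8, Krt18 and Krt19 on a log axis in the 12 libraries, by group, with a line at each group mean and a symbol for each replicate number. Krt7 runs from 61.7 to 200 FPKM and Krt19 from 1.05 to 139 FPKM, and in each genotype the UUO symbols lie above the CL symbols.

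Krt8, the type II partner of Krt18 and the usual first keratin of an epithelium, measured 67.7, 90.6 and 64.5 FPKM in Acot12+/+ CL and 252, 251 and 250 FPKM in Acot12+/+ UUO kidneys. The Acot12-/- mice had 110, 55.3 and 126 FPKM in CL and 224, 311 and 257 FPKM in UUO kidneys. The Acot12+/+ UUO libraries were nearly identical (251 ± 1.03, SD, n = 3), whereas those of Acot12-/- CL (97.0 ± 37.04, SD, n = 3) were spread out, with replicate 2 the lowest. On the log2(FPKM + 1) scale Krt8 rose by 1.76 (SE 0.27, adjusted p = 0.000267 by limma) in Acot12+/+ and by 1.51 (SE 0.27, adjusted p = 0.000549) in Acot12-/- mice. The mean UUO level was 3.38 times the mean CL level in Acot12+/+ and 2.72 times in Acot12-/- mice.

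Krt18, the type I chain that pairs with Krt8, measured 16.9, 41.3 and 13.1 FPKM in Acot12+/+ CL and 152, 134 and 127 FPKM in Acot12+/+ UUO kidneys. Krt18 in Acot12-/- mice was at 14.8, 19.8 and 24.1 FPKM in CL and 136, 206 and 175 FPKM in UUO kidneys. Acot12+/+ CL replicate 2 was the highest of the 6 CL libraries, and it was still far below the lowest UUO library. Krt18 rose by 2.65 (SE 0.34, adjusted p = 8.33e-05 by limma) in Acot12+/+ and by 3.08 (SE 0.34, adjusted p = 1.82e-05) in Acot12-/- mice on the log2 scale. The ratio of the group means was 5.80 and 8.82.

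Krt19, the smallest keratin, which lacks most of the tail of the other chains, measured 1.44, 14.99 and 1.30 FPKM in Acot12+/+ CL and 99.8, 93.4 and 38.5 FPKM in Acot12+/+ UUO kidneys. In Acot12-/- mice it measured 1.05, 3.602 and 2.59 FPKM in CL and 68.2, 139 and 88.2 FPKM in UUO kidneys. Acot12+/+ CL replicate 2 stood far above the other 5 CL libraries, and Acot12+/+ UUO replicate 3 was the lowest UUO library, so the spread within the Acot12+/+ groups was wide. Krt19 rose by 4.01 (SE 0.65, adjusted p = 0.000398 by limma) in Acot12+/+ and by 4.88 (SE 0.65, adjusted p = 6.81e-05) in Acot12-/- mice on the log2 scale. The ratio of the group means was 13.1 and 40.8, and in Acot12+/+ mice the CL mean of 5.91 FPKM was set by replicate 2: without it the log2 difference was 4.93.

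Krt7, a type II chain of ducts and urothelium, measured 91.7, 130 and 66.1 FPKM in Acot12+/+ CL and 146, 145 and 160 FPKM in Acot12+/+ UUO kidneys. The values in Acot12-/- mice were 109, 61.7 and 138 FPKM in CL and 164, 188 and 200 FPKM in UUO kidneys. It was the highest of the 4 genes in 5 of 6 CL libraries and the one whose CL and UUO levels lay closest. The difference of 0.70 (SE 0.29, 95% interval 0.07 to 1.32) in Acot12+/+ mice was not called (adjusted p = 0.0635 by limma), although the libraries did not overlap. It was called without Acot12+/+ CL replicate 2 (0.94, adjusted p = 0.0248), and also without Acot12-/- CL replicate 2 (adjusted p = 0.0141) or replicate 3 (adjusted p = 0.0403), which changed only the estimate of the spread. Those 3 fits called 21%, 30.8% and 25.1% of all genes tested higher. In Acot12-/- mice Krt7 rose by 0.90 (SE 0.29, adjusted p = 0.0187), and this call was lost without Acot12-/- CL replicate 2 (0.58, adjusted p = 0.0512) and without Acot12-/- UUO replicate 3 (0.84, adjusted p = 0.0578).

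With CL and UUO libraries of the same genotype and number set side by side, each of the 4 genes was higher in the UUO library of 6 of 6 pairs. The ratio of UUO to CL ran from 1.11 to 3.05 for Krt7, from 2.04 to 5.64 for Krt8, from 3.24 to 10.4 for Krt18 and from 6.23 to 69.5 for Krt19. The lowest ratio of Krt7, Krt18 and Krt19 was in each case that of Acot12+/+ replicate 2. Without both CL replicates 2, an alternative chosen after seeing the data, all 4 genes were called in both genotypes, with log2 differences of 0.94 for Krt7, 1.91 for Krt8, 3.12 for Krt18 and 4.93 for Krt19 in Acot12+/+ and of 0.58, 1.15, 3.10 and 5.13 for the same genes in Acot12-/- mice. These fits called 29.3% of all genes tested higher in Acot12+/+ and 29.1% in Acot12-/- mice.

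**Figure D2:**
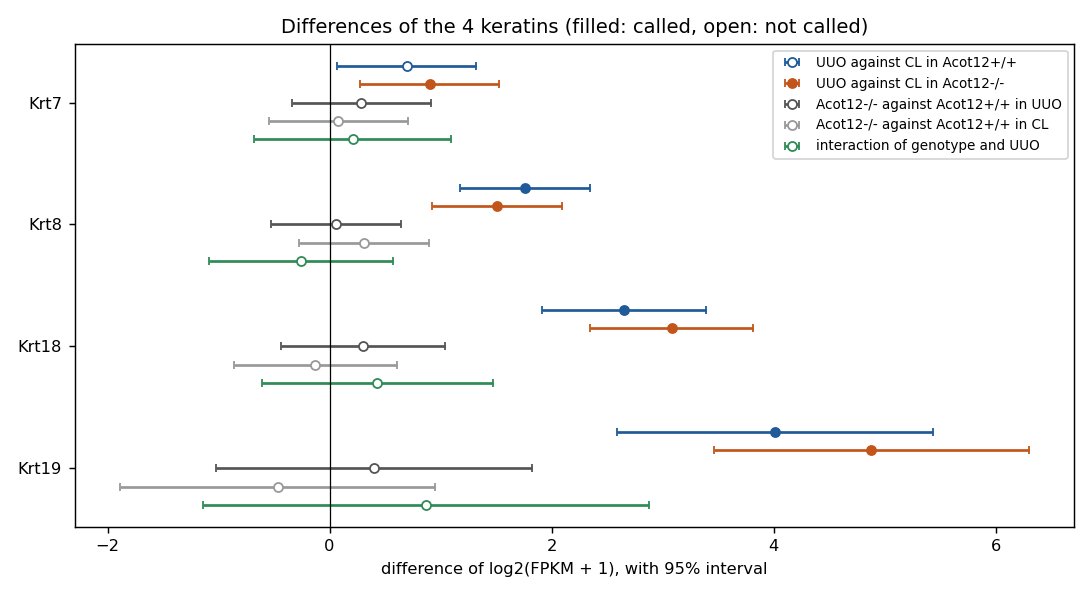
Differences of log2(FPKM + 1) for each of the 4 keratins in the 5 comparisons, with 95% intervals from limma and filled symbols for the called ones. Krt8, Krt18 and Krt19 are called after UUO in both genotypes and Krt7 in Acot12-/- mice, and the intervals of the genotype comparisons and of the interaction contain 0.

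The order of the 4 levels differed between CL and UUO kidneys. In CL kidneys the mean levels fell from Krt7 (96.1 FPKM in Acot12+/+ and 103 in Acot12-/- mice) over Krt8 (74.3 and 97.0) to Krt18 (23.8 and 19.6) and Krt19 (5.91 and 2.42), and the libraries of Krt7 and Krt8 overlapped. In Acot12+/+ CL kidneys the highest Krt19 library (14.99 FPKM) also passed the lowest Krt18 library (13.1 FPKM). In UUO kidneys Krt8 was the highest in every library, with means of 251 and 264 FPKM. Krt7 (151 and 184 FPKM) and Krt18 (138 and 172 FPKM) followed with overlapping libraries. Krt19 was the lowest in every UUO library, with means of 77.2 and 98.6 FPKM, although its highest Acot12-/- library (139 FPKM) passed the lowest Krt18 library (136 FPKM) of that group.

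The type II chains outweighed the type I chains by less in UUO kidneys. Krt7 and Krt8 together measured 3.92 to 13.8 times the sum of Krt18 and Krt19 in CL libraries and 1.45 to 2.47 times in UUO libraries. For Krt8 and Krt18, the classic filament pair, the ratio in Acot12+/+ mice was 4.0, 2.19 and 4.91 on the CL side and 1.66, 1.87 and 1.96 on the obstructed side. The Acot12-/- ratios were 7.43, 2.80 and 5.22 on the CL side and 1.65, 1.51 and 1.46 on the obstructed side. The CL and UUO ratios did not overlap, and both replicates 2 had the lowest CL ratio of their group. Krt7 relative to Krt8 was 0.99 to 1.44 in CL and 0.58 to 0.78 in UUO libraries, again without overlap. Krt19 relative to Krt18 was 0.071 to 0.363 in CL and 0.302 to 0.697 in UUO libraries, where Acot12+/+ CL replicate 2 (0.363) passed Acot12+/+ UUO replicate 3 (0.302). These ratios are descriptions with no test.

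**Figure D3:**
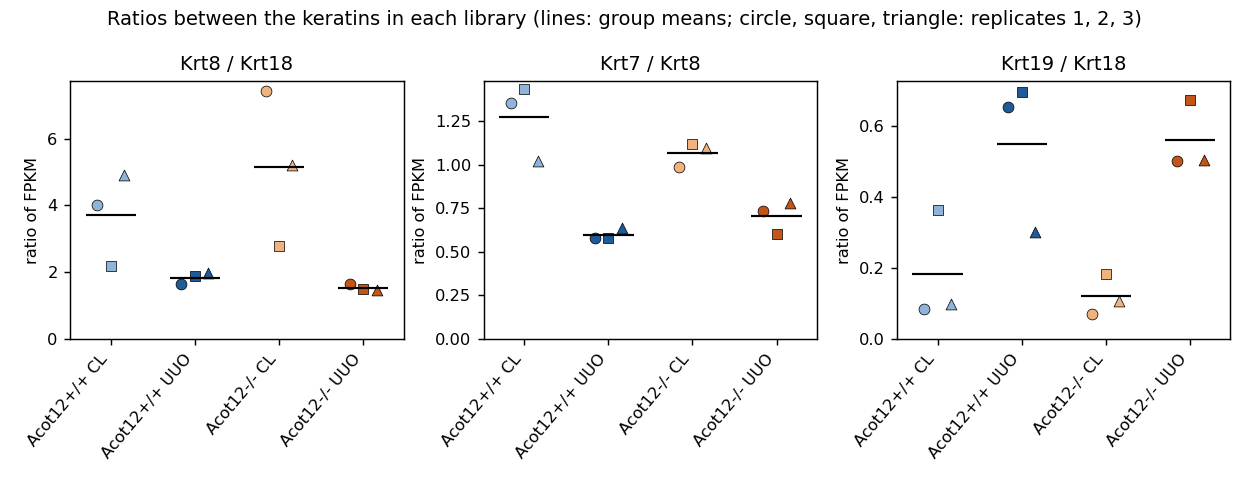
Ratios of FPKM of Krt8 to Krt18, Krt7 to Krt8 and Krt19 to Krt18 in each library on linear axes from 0, with lines at the group means. Krt8 to Krt18 lies at 2.19 to 7.43 in CL and at 1.46 to 1.96 in UUO libraries.

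The genotypes were then compared within each kind of kidney. In UUO kidneys none of the 4 genes differed by the test, where 0.0151% of all genes tested, 2 genes, were called in either direction. The Acot12-/- minus Acot12+/+ difference was 0.29 for Krt7 (95% interval -0.34 to 0.91), 0.06 for Krt8 (-0.53 to 0.65), 0.30 for Krt18 (-0.43 to 1.04) and 0.40 for Krt19 (-1.02 to 1.82), each with an adjusted p of 1.00 by limma and none with an unadjusted p under 0.339. For Krt7 alone the 3 Acot12-/- UUO libraries (164 to 200 FPKM) lay above the 3 Acot12+/+ UUO libraries (145 to 160 FPKM), a separation that 12.0% of all genes tested showed in either direction. The sign of the Krt19 difference rested on Acot12+/+ UUO replicate 3: without it the difference was -0.03. That of Krt8 turned to -0.07 without Acot12-/- UUO replicate 2.

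In CL kidneys none of the 4 was called, where 4.48% of all genes tested were, and none had libraries that did not overlap, where 18.3% of all genes had. The difference was 0.08 for Krt7 (95% interval -0.55 to 0.70, adjusted p = 0.934 by limma), 0.31 for Krt8 (-0.27 to 0.90, adjusted p = 0.632), -0.13 for Krt18 (-0.86 to 0.61, adjusted p = 0.907) and -0.47 for Krt19 (-1.89 to 0.95, adjusted p = 0.800). These values depended on single libraries. Without Acot12-/- CL replicate 2 Krt8 was called higher in Acot12-/- mice (0.67, adjusted p = 0.0226 by limma), in a fit that called 22.1% of all genes tested. Without both CL replicates 2 Krt8 (0.82, adjusted p = 0.0163) and Krt7 (0.65, adjusted p = 0.0486) were called, where 14.5% of all genes tested were. Without Acot12+/+ CL replicate 2 the difference of Krt18 was 0.34 and that of Krt19 was 0.45. Acot12-/- CL replicate 2, the lowest library of Krt7 and Krt8 among the 12, also had 38.9 FPKM of the collecting duct water channel Aqp2, against 169 and 164 FPKM in replicates 1 and 3 of its group, and the summed collecting duct list was 357 FPKM against 475 and 574 FPKM; the part of this in the Krt7 and Krt8 values was not tested.

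Whether obstruction changed the keratins differently in the 2 genotypes was tested with the interaction of genotype and UUO. None of the 4 was called, where 0.106% of all genes tested, 14 genes, were. That count rested on single libraries and on the pairing: it was 83 with the replicate block, 916 without Acot12-/- CL replicate 2, 153 without Acot12-/- CL replicate 3, 8 without Acot12-/- UUO replicate 1 and 0 by limma without each of the other 9 libraries, where 1025 to 1274 genes had an unadjusted p under 0.05. None of the 4 keratins was called in any of these fits. The Acot12-/- change minus the Acot12+/+ change was 0.21 for Krt7 (95% interval -0.68 to 1.09, adjusted p = 0.950 by limma), -0.25 for Krt8 (-1.08 to 0.57, adjusted p = 0.925), 0.43 for Krt18 (-0.61 to 1.47, adjusted p = 0.881) and 0.87 for Krt19 (-1.14 to 2.88, adjusted p = 0.871). Without Acot12+/+ CL replicate 2 the values of Krt18 and Krt19 were -0.04 and -0.05. The intervals leave room for a difference of more than 2-fold in Krt19 in either direction, so a missing call does not show that the genotypes responded alike.

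Of the other 48 keratin symbols, 8 reached 1 FPKM in at least 3 libraries, 20 were listed at 0 in all 12 libraries and 20 lay below that level. The 4 simple keratins made up 88.7% to 95.7% of all keratin FPKM in CL libraries and 77.1% to 88.6% in UUO libraries, while their sum went from 140 to 291 FPKM in CL to 576 to 846 FPKM in UUO libraries. Of the 8 others, 5 rose (Krt5, Krt14, Krt15, Krt17 and Krt20) and 1 fell (Krt10) in each genotype, and Krt23 and Krt80 were not called. Of all genes tested 23.6% were called higher in Acot12+/+ and 26.6% in Acot12-/- mice. Krt5, Krt14, Krt17 and Krt20 reached 1 FPKM in 3 libraries only through UUO libraries, so their rise was partly fixed by the filter. Krt20, a type I keratin of the top cells of the urothelium, measured 0.26, 0.48 and 0.13 FPKM in Acot12+/+ CL and 35.2, 72.1 and 55.7 FPKM in Acot12+/+ UUO kidneys. Krt20 in Acot12-/- mice was at 0.31, 0.20 and 0.29 FPKM in CL and 43.8, 54.9 and 52.5 FPKM in UUO kidneys. Its difference was 5.37 (SE 0.22, adjusted p = 5.53e-08 by limma) and 5.33 (SE 0.22, adjusted p = 6.03e-08), above that of each of the 4 simple keratins. Krt10, a keratin of differentiating epidermis, fell by 0.92 and 0.97 from 5.48 to 9.58 FPKM in CL libraries.

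**Figure D4:**
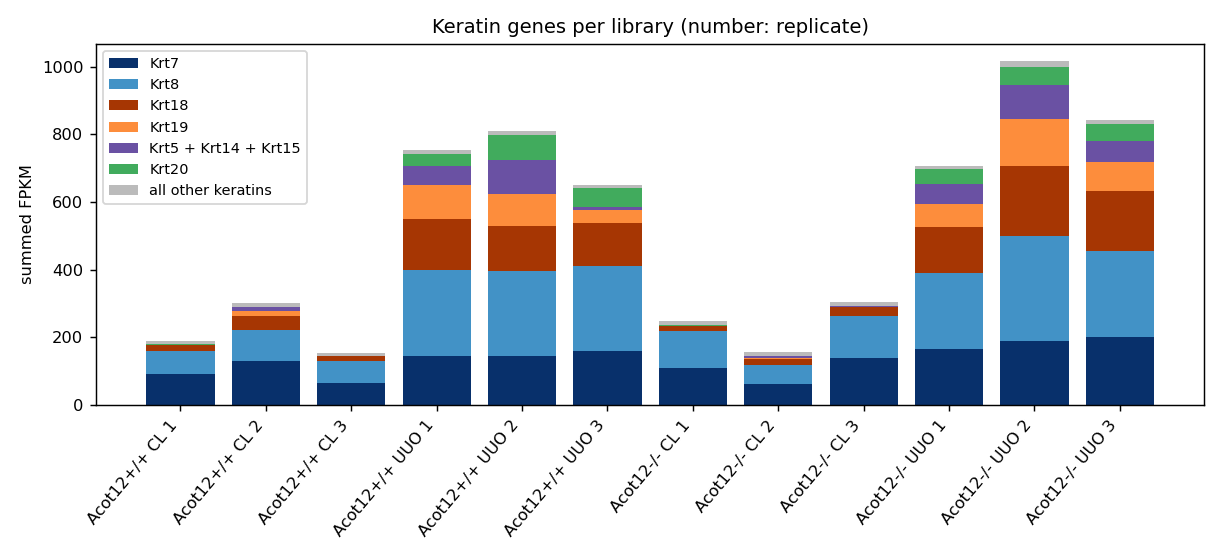
Summed FPKM of all keratin genes in each library, as bars from 0 split into the 4 simple epithelial keratins, the sum of Krt5, Krt14 and Krt15, Krt20, and all other keratins. The 4 simple keratins make up 77.1% to 95.7% of each bar, and Acot12+/+ UUO replicate 3 has the smallest sum of Krt5, Krt14 and Krt15 (9.12 FPKM) among the UUO libraries.

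Krt5, Krt14 and Krt15, keratins of the basal layer of stratified epithelia and of the urothelium, also varied between libraries of a group. Their sum was 1.17, 13.1 and 0.51 FPKM in Acot12+/+ CL and 56.8, 102 and 9.12 FPKM in Acot12+/+ UUO libraries. The Acot12-/- sums were 0.26, 3.77 and 2.10 FPKM in CL and 59.5, 99.8 and 59.7 FPKM in UUO libraries. The high library of Acot12+/+ CL (replicate 2) and the low library of Acot12+/+ UUO (replicate 3) were the same as for Krt19, Krt8 and Krt18. Krt8 was nearly level in the Acot12+/+ UUO libraries, at 250 to 252 FPKM. Krt7 shared the high CL library, but replicate 3 was its highest Acot12+/+ UUO library (160 FPKM). The order of replicates was that of Krt19 in 3 of the 4 groups, that of Krt8, Krt18 or Krt20 in 2 and that of Krt7 in 1. These orders are descriptions with no test, and their share over all genes was not counted.

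Cortex samples can hold some urothelium of the renal pelvis, so its markers were set beside the members. The sum of 6 urothelial markers that are not keratins (Upk1a, Upk1b, Upk2, Upk3a, Psca and Trp63) was 6.28, 64.8 and 6.52 FPKM in Acot12+/+ CL and 107, 119 and 13.2 FPKM in Acot12+/+ UUO libraries. The same sum in Acot12-/- mice was 1.47, 16.7 and 7.66 FPKM in CL and 103, 131 and 90.8 FPKM in UUO libraries. With Krt5 and Krt20 the list has 8 genes, of which 3 (Krt20, Krt5 and Trp63) rose in Acot12+/+ and 8 in Acot12-/- mice. Of all genes tested 23.6% and 26.6% were called higher. Krt5, Krt20, Trp63 and Upk1b reached 1 FPKM in 3 libraries only through UUO libraries, so their rise was partly fixed by the filter. Trp63 was at most 1.24 FPKM. Replicate 2 had the highest marker sum in both CL groups and the highest Krt19 in both. The order of replicates by the marker sum was that of Krt19 in 1 of the 4 groups and that of Krt7, Krt8, Krt18 or Krt20 in 0 of 4. The part of urothelium in the keratin values was not tested. Acot12+/+ UUO replicate 3 had a marker sum of 13.2 FPKM, below the 64.8 FPKM of Acot12+/+ CL replicate 2, and had 250 FPKM of Krt8 against 90.6, 127 FPKM of Krt18 against 41.3, 38.5 FPKM of Krt19 against 14.99 and 55.7 FPKM of Krt20 against 0.48. Krt7 was closer in these libraries, with 160 and 130 FPKM.

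**Figure D5:**
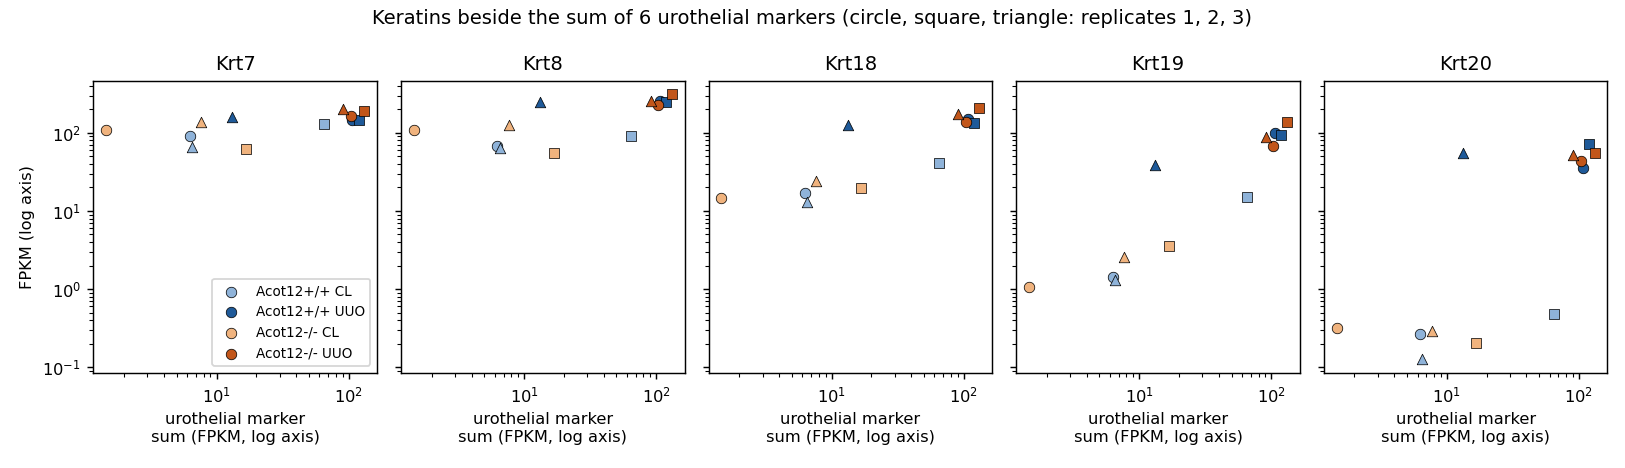
FPKM of the 4 simple keratins and of Krt20 against the summed FPKM of 6 urothelial markers in each library, both on log axes, with colours for the groups and symbols for the replicates. The UUO library at a marker sum of 13.2 FPKM (Acot12+/+ replicate 3) lies above the CL library at 64.8 FPKM (Acot12+/+ replicate 2) in all 5 panels.

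Markers of other kidney cells moved with obstruction as well. In Acot12+/+ mice 3129 of the 13243 genes tested were called higher and 3161 lower, and in Acot12-/- mice 3518 and 3596. Cd44, Cdh6, Msln and Upk3b reached 1 FPKM in 3 libraries only through UUO libraries, and Pvalb and Slc4a1 only through CL libraries. The filter thus partly fixed their direction. All 9 injured tubule markers rose in both genotypes (Havcr1, Vcam1, Lcn2 and Cd44 by the most). Their sum was 1035 to 5034 FPKM in CL and 15413 to 18392 FPKM in UUO libraries. Most of this sum was Spp1, with 878 to 4898 FPKM in CL and 13274 to 15934 FPKM in UUO libraries. Of 11 proximal tubule markers, 10 fell in Acot12+/+ and 11 in Acot12-/- mice. Of 11 markers of the collecting duct, where these keratins are known in health, 6 fell and 1 rose in Acot12+/+ mice. In Acot12-/- mice 3 fell, near the share of all genes called lower, and 2 rose, below the share called higher. The sum of the 11 was 357 to 589 FPKM in CL and 271 to 500 FPKM in UUO libraries. Of 8 general epithelial markers 4 rose and 1 fell in Acot12+/+ and 5 rose and 1 fell in Acot12-/- mice. Their sum was 390 to 530 FPKM in CL and 479 to 543 FPKM in UUO libraries. The marker that fell, Cdh16, weighed most in this sum, with 220 to 377 FPKM in CL and 161 to 201 FPKM in UUO libraries. Intercalated cell markers fell (5 of 7 and 4 of 7), as did those of the thick ascending limb (3 of 4 and 3 of 4) and of the distal convoluted tubule (3 of 5 and 4 of 5), and none of them rose. Of the mesothelial markers Lrrn4 was at or near 0 in every library (at most 0.029 FPKM), and the sum of the 3 markers was at most 8.89 FPKM. Of the 2 mesothelial markers tested, Msln rose in both genotypes (1.08 and 2.01) and Upk3b rose in Acot12-/- mice (1.29). Macrophage markers (7 of 8 and 8 of 8) and fibroblast markers (6 of 9 and 9 of 9) rose, and of 6 endothelial markers 1 rose and 2 fell in Acot12+/+ while 5 rose in Acot12-/- mice. In CL kidneys 5 of 6 endothelial, 4 of 8 macrophage and 2 of 9 fibroblast markers were called lower in Acot12-/- than in Acot12+/+ mice. Of all 13243 genes tested 445 were called lower there. With only the groups compared, 1 gene of all was called. The part of the make-up of cells in the keratin values was not tested.

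Genes that work with keratin filaments were read from 3 lists. In Acot12+/+ mice 3129 of the 13243 genes tested were called higher and 3161 lower. In Acot12-/- mice these counts were 3518 and 3596. Of 15 genes of desmosomes and of the linkers that tie keratins to them, 11 were tested, 5 rose in each genotype, and 2 fell in Acot12+/+ and 1 in Acot12-/- mice. The share that fell was below that of all genes in both genotypes, and the median difference was 0.74 and 0.69. Plec, the linker plectin, rose by 1.38 and 2.32, and Dsg2, the desmosomal cadherin of simple epithelia, rose by 1.53 and 1.25. Ppl (periplakin) rose by 1.14 and 1.81, Dsp (desmoplakin, which anchors keratins at the desmosome) by 1.03 and 1.08, and Pkp4 fell by 0.71 and 0.95. With every library scaled to equal total FPKM, where the median of all genes tested was 0.62 in Acot12+/+ mice, the differences of Pkp4 (0.01), Dst (0.17) and, of the marker lists, Cdh16 (0.07) and Atp6v1b1 (0.06), all called lower in Acot12+/+ mice, were above 0 but below that median.

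Of 15 other intermediate filament genes, 6 were tested, and 6 rose in Acot12+/+ and 5 in Acot12-/- mice, with medians of 0.87 and 1.16. Of all genes tested 23.6% and 26.6% were called higher. Vim, the vimentin of mesenchymal and injured tubule cells, rose by 1.43 and 2.20. Des, the desmin of muscle cells and podocytes under stress, rose by 0.59 and 1.54, and the nuclear lamin Lmnb1 by 1.24 and 0.95. Lmna was the gene called in Acot12+/+ mice only (0.86 and 0.70, adjusted p = 0.0422 and 0.0816 by limma), and the genotypes were not shown to differ.

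Of 10 epithelial transcription factors, 9 were tested, and 6 rose and 1 fell in each genotype, with medians of 0.50 and 0.73. Of all genes tested 23.6% and 26.6% were called higher. Klf5 and Trp63 reached 1 FPKM in 3 libraries only through UUO libraries, so their rise was partly fixed by the filter. Sox9, a factor of repairing tubule cells that also stands in the injured tubule list, rose by 3.13 and 3.09. Elf3, an epithelial ETS factor, rose by 2.06 and 1.66, Klf5 by 1.37 and 1.63 and Klf4 by 1.18 and 1.57. Ovol1, a repressor of mesenchymal genes, fell by 0.82 and 0.89.

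The genes with the profile most like that of each keratin were named by the root mean square difference of log2(FPKM + 1) over the 12 libraries, after each profile was centred on its mean. For Krt8 they were Lsr (0.149), 1700017B05Rik (0.1501) and Hoxb8 (0.155), the closest matches of the 4 genes. For Krt7 they were Ifitm2 (0.187), Pbxip1 (0.187) and Ppp1r15a (0.188), and for Krt18 Oit1 (0.226), Capg (0.232) and Tubb2b (0.247). For Krt19 they were Timp1 (0.387), Sprr1a (0.480) and Sprr2g (0.525). No keratin was among the 3 nearest of another. Krt18 and Krt19 differed by 0.92, which placed Krt19 at rank 936 of 13242 genes. Krt8 and Krt18 differed by 0.74 (rank 3901) and Krt7 and Krt8 by 0.45 (rank 3158). The other pairs lay farther apart: Krt7 and Krt18 by 1.09 (rank 11964), Krt8 and Krt19 by 1.64 (rank 12518) and Krt7 and Krt19 by 1.98 (rank 13156). The measure is not scaled for the size of a change, so genes that rise by unlike amounts differ in it. The likeness is a description over libraries that share the obstruction effect and has no test.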

How the data were processed

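RNA-seq was measured in 12 libraries of kidney cortex, 4 groups of 3. The deposited values are FPKM per gene symbol, made from reads that a service provider trimmed, mapped and normalized for the authors. The unit was derived from the values, whose low steps are inverse to transcript length. The labels name mm10 and edgeR, and the aligner is not given in the sources used here. Whether the values were also scaled between libraries is not stated, so the depths given are approximate. Genes were tested if at least 3 libraries had at least 1 FPKM, without 28 genes listed at 0 beside at least 10 FPKM in the same group, which left 13243. R 4.3.3 with limma 3.58.1 fitted log2(FPKM + 1) in 1 model of 4 groups (eBayes with a variance trend, two-sided, adjusted p under 0.05). Such differences understate the change of genes at low FPKM. Simulated data for UUO against CL in Acot12+/+ mice had 200 genes of 13243 changed by 1 or 2 on the log2 scale. The fit recovered 98% of those changed by 2, which says nothing about the recovery of smaller changes. The residuals of same-numbered CL and UUO libraries correlated at 0.134 to 0.364 within genotypes, and those of differently numbered ones at -0.363 to 0.139. The 2 ranges overlapped in Acot12+/+ mice, so the pairing of kidneys by number was an assumption. Neither the labels nor the paper name separate mice per library, so p-values measure the spread between these samples. The members and lists were chosen with earlier results of these data known. Named genes were the 4 keratins, other keratins that reached 1 FPKM in 3 libraries, Acot12, the nearest profiles, and of each list the called genes with the largest change in each direction. Values of 1 gene under this rule are not reported here.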

Additional observations from a re-analysis of the deposited data

How the results depend on the processing

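The 20 results (4 genes in 5 comparisons) were refitted under up to 21 alternatives: a pseudocount of 0.1, no filter, genes listed at 0 kept, no variance trend, 2 scalings, the replicate block, only the groups compared, each library left out, and both CL replicates 2 left out, which was chosen after seeing the data. Of 416 refits 388 kept direction and side of the threshold, 16 reversed, 10 gained and 2 lost a call. The rise of Krt8, Krt18 and Krt19 after UUO was called in all 21 alternatives in both genotypes. With the replicate block, which pairs kidneys of the same number, no call of a keratin changed (Krt19 4.01 in Acot12+/+, adjusted p = 0.000233; Krt7 0.70, adjusted p = 0.0554, by limma). Krt7 in Acot12+/+ UUO was called with median-ratio size factors (0.79), with equal total FPKM (1.43), with only the groups compared (0.70) and without both CL replicates 2 (0.94). Equal total FPKM moved the median of all genes to 0.62 in Acot12+/+ and 0.46 in Acot12-/- UUO against CL, to -0.15 for genotype in UUO and to -0.17 for the interaction, and median-ratio factors moved it to 0.13 in Acot12-/- mice, so these values are read against those shifts. Equal total FPKM turned Krt8 in UUO kidneys to -0.11. With a single library left out, the UUO difference of Krt7 ran from 0.46 to 0.94 in Acot12+/+ and from 0.58 to 1.15 in Acot12-/- mice. Between genotypes in UUO kidneys Krt8 ran from -0.0655 to 0.17 and Krt19 from -0.0329 to 0.64. In CL kidneys Krt7 ran from -0.17 to 0.41, Krt8 from 0.0863 to 0.67, Krt18 from -0.45 to 0.34 and Krt19 from -0.95 to 0.45. The interaction ran from -0.12 to 0.46 for Krt7, from -0.6136 to -0.0269 for Krt8, from -0.0397 to 0.75 for Krt18 and from -0.0499 to 1.35 for Krt19. Without both CL replicates 2 the CL differences were 0.65 for Krt7, 0.82 for Krt8, 0.32 for Krt18 and 0.20 for Krt19, and the interaction was -0.36 for Krt7, -0.76 for Krt8 (adjusted p = 0.0813), -0.0196 for Krt18 and 0.20 for Krt19. Over the alternatives the number of all genes called ran from 1 (only the groups compared) to 2923 between genotypes in CL kidneys (593 as reported), from 0 to 3 in UUO kidneys (2 as reported) and from 0 to 916 for the interaction (14 as reported), and the genes called higher after UUO from 2472 to 7645 in Acot12+/+ (3129 as reported) and from 2743 to 6295 in Acot12-/- mice (3518 as reported). The causes were not tested. Counting error, which matters most for Krt19 in CL kidneys, is covered only by the spread of 3 libraries, since no counts were at hand.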

Other observations

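Among all 23183 symbols, ranked by mean FPKM from the highest, Krt8 in Acot12+/+ mice moved from rank 1419 in CL to rank 288 in UUO kidneys, and in Acot12-/- mice from 1231 to 318. Krt19 went from rank 7977 to 972 and from 10294 to 828, Krt18 from 3544 to 520 and from 4259 to 472, and Krt7 from 1129 to 477 and from 1166 to 429. All 4 keratins were thus within the upper 4.19% of symbols in UUO kidneys. Krt17, a keratin of repairing epithelium, was listed at 0 in 5 of 6 CL libraries (0.127 FPKM in Acot12+/+ CL replicate 2) and measured 2.43, 0.999 and 1.49 FPKM in Acot12+/+ UUO and 0.948, 3.86 and 1.65 FPKM in Acot12-/- UUO kidneys.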
